A study of Homo sapiens with 24 samples.

Results

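CCL5, CXCL10, CXCL11, CCL20, CXCL16, CX3CL1 and CCL28, chemokine genes whose products draw T cells, monocytes and related leukocytes, were followed in cultured esophageal adenocarcinoma (EAC) cells. They were taken by gene name, are 7 of the 58735 genes counted, and were each found under 1 identifier. The cells were those of OE33 and of SK-GT-4, both long-established human EAC lines. In each line, a Cas9 control (a clone that received the CRISPR vector without a guide) and a cGAS KO clone (CGAS disrupted with Cas9 and a guide) were given either DMSO or MPS1i, which is reversine, at 500 nM for 48 h. Reversine blocks MPS1, a kinase of the spindle checkpoint. MPS1 inhibition makes chromosomes missegregate and micronuclei form, so the design asks whether chromosomal instability changes chemokine transcripts and whether cGAS, the cytosolic DNA sensor, is needed for that. There were 8 groups of 3 libraries, with a library of every group in all 3 batches, and the 24 libraries held between 15561268 and 25284177 counts. All groups were cultures of a single cell line carrying Cas9, and the labels neither name the clones nor say whether every batch used the same one, so the loss of cGAS and other differences between clones cannot be told apart. In bulk RNA, a change in every cell and a change in the share of cells that express a gene cannot be told apart either.

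Chemokines are small secreted or membrane-tethered proteins that steer leukocytes through receptors on the leukocyte surface. CXCL10 and CXCL11 bind CXCR3 on activated T cells and are classic targets of interferons. CCL5 draws T cells and monocytes and answers to both IRF and NF-κB factors, while CCL20, the ligand of CCR6, is a typical NF-κB target in epithelium. CXCL16, the ligand of CXCR6, and CX3CL1 (fractalkine), the ligand of CX3CR1 on monocytes, are made as membrane proteins and shed by the proteases ADAM10 and ADAM17. CCL28 is a mucosal chemokine of epithelia that binds CCR10 and CCR3.

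In the count table (GRCh38), CXCL10 (chr4:76021117-76023497) and CXCL11 (chr4:76033682-76041415) lie close together on the minus strand. CCL5 (chr17:35871491-35880793) and CXCL16 (chr17:4733526-4739922) share a chromosome and the minus strand but not a region, and CCL28 (chr5:43376645-43412391) is also on the minus strand. CCL20 (chr2:227805739-227817564) and CX3CL1 (chr16:57372458-57385048) are on the plus strand.

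Promoter sequence is shown for the inducible members because cGAS signals through STING to IRF and NF-κB factors. RefSeq (GRCh38.p14) gave a start for 4 of the 7 genes, and CCL5, CX3CL1 and CXCL16 had no entry. The 250 bases before the start are printed 5′ to 3′ on the strand of the gene, for CXCL10 (chr4:76023498-76023747, minus strand), CXCL11 (chr4:76036071-76036320, minus strand) and CCL20 (chr2:227813592-227813841, plus strand). Capitals mark matches, on either strand, to the core of the interferon-stimulated response element (GAAANNGAA), to the consensus κB site and to the TATA box (TATAAA).
CXCL10: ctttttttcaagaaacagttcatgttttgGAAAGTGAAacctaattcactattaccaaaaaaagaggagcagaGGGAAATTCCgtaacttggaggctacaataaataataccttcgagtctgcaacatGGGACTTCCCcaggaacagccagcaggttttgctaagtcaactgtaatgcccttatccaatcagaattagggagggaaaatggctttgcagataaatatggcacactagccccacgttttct
CXCL11: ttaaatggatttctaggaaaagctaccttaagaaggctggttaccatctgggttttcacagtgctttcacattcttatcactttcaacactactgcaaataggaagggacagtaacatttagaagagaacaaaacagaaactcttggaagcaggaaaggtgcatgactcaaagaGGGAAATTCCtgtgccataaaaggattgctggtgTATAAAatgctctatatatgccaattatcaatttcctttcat
CCL20: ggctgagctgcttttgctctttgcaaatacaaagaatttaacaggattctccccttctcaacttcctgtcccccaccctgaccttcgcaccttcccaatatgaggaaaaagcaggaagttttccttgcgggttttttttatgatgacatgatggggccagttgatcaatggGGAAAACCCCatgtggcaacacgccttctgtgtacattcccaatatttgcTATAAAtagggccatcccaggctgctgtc
The CXCL10 window held a response element core, GAAAGTGAA, from 221 to 213 bases before the start, and κB matches from 177 to 168 (GGGAAATTCC) and from 122 to 113 (GGGACTTCCC). CXCL11 had the κB match GGGAAATTCC from 76 to 67 bases before the start, and CCL20 had GGAAAACCCC from 79 to 70, each with a TATA box downstream of it. Neither of the CCL28 windows, before starts annotated at different places, held any of the 3 motifs. Of 35116 RefSeq promoters of this length, 6.88% held the response element core, 9.96% a κB match and 10.7% a TATA box. The starts used for CXCL11 and CCL20 lie inside the span that the count table gives these genes. A match describes letters and not a bound site.

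CGAS was read first, in CPM (counts scaled to the depth of a library with TMM factors). The 6 Cas9 libraries of OE33 had between 28.9 and 41.6 CPM. CGAS had a median of 2.47 CPM in the 6 cGAS KO libraries of OE33, of which the library labelled cGAS KO DMSO replicate 2 stood apart at 15.6 CPM. In SK-GT-4 it lay between 14.7 and 26.1 CPM in Cas9 and between 2.22 and 6.09 CPM in cGAS KO. All 6 epithelial markers checked (EPCAM, CDH1, KRT8, KRT18, KRT19, CLDN4) had a mean of at least 1 CPM in both lines. Of 12 immune and stromal markers, 2 reached that level in OE33 (CD14 and COL1A1) and 3 did in SK-GT-4 (these and PECAM1). PTPRC, the defining leukocyte marker, never exceeded 0.163 CPM.

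Over both genotypes, most of the chemokine pool was a single gene. CXCL16 made up 92.7% of the summed CPM of the 7 members in OE33, where the sum had a median of 156 CPM, and 64.7% in SK-GT-4, where it had a median of 14.1 CPM. CCL28 came next, with 5.64% and 24.9%. These shares pool Cas9 and cGAS KO libraries, and in SK-GT-4 the order depended on genotype. Mean CXCL16 was 4.01 CPM in SK-GT-4 Cas9 cells, below CCL28 at 5.17 CPM. In SK-GT-4 cGAS KO cells the means were 18.4 CPM for CXCL16 and 3.47 CPM for CCL28. Only CXCL16 and CCL28 were above 3 counts, taken as the floor, in all 24 libraries. CCL5 was at or below the floor in 8 libraries, CCL20 in 6, CX3CL1 in 6, CXCL11 in 17 and CXCL10 in 22. In 1 library the floor corresponds to between 0.111 and 0.195 CPM, so for the inducible members a difference has to be read from few counts.

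Scaled to gene length (CPM per kilobase), the order of levels in Cas9 cells given DMSO was CXCL16, CCL28, CCL5, CCL20, CXCL11, CXCL10 and CX3CL1 in OE33. CXCL16 stood at 50.1 ± 13.6 CPM per kilobase (SD, n = 3) and CCL28 at 1.54 ± 0.194, with no library of one near the other. CCL5 (0.475 ± 0.411), CCL20 (0.289 ± 0.233), CXCL11 (0.144 ± 0.159), CXCL10 (0.0865 ± 0.0858) and CX3CL1 (0.0455 ± 0.0124) followed. CCL5 stayed below CCL28 in each library, and from CCL5 on each gene overlapped the next in this order. In SK-GT-4 the order was CXCL16 (1.44 ± 0.436), CCL28 (1.12 ± 0.0642), CCL20 (0.272 ± 0.322), CX3CL1 (0.213 ± 0.0698), CCL5 (0.167 ± 0.0839), CXCL10 (0.0290 ± 0.0501) and CXCL11 (0.00649 ± 0.0112). CXCL16 and CCL28 overlapped here, since 1 CXCL16 library had 1.13 and the CCL28 libraries ran from 1.06 to 1.19. CCL20 and the genes after it stayed below CCL28, and each of them overlapped the next.

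**Figure D1:**
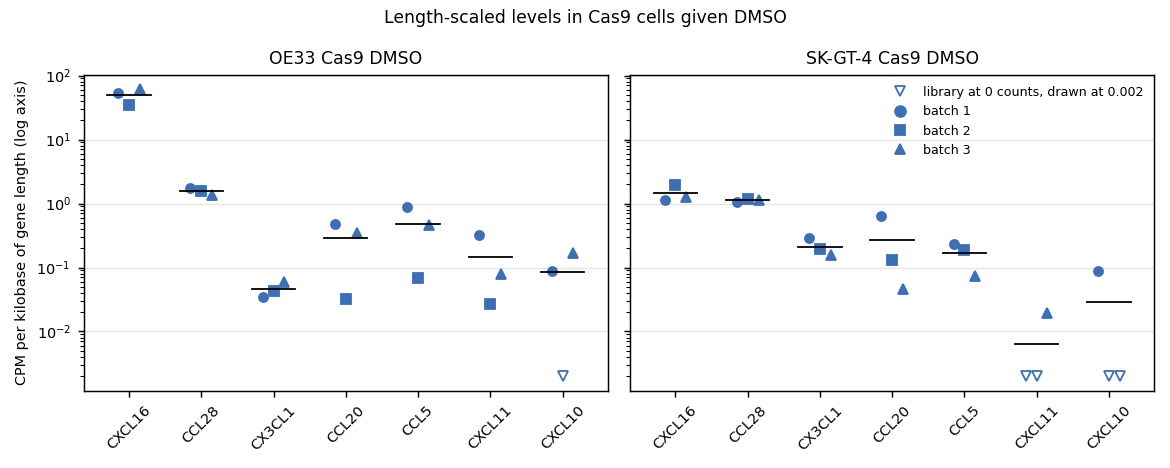
Levels of the 7 chemokines in Cas9 cells given DMSO, as CPM per kilobase of gene length on a log axis, in OE33 (left) and SK-GT-4 (right). Points are libraries, shaped by batch, bars are means of 3 libraries, and open triangles at 0.002 are libraries with 0 counts. CXCL16 stood apart from the other members in OE33 and overlapped CCL28 in SK-GT-4.

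The lines differed most in CXCL16. In Cas9 cells given DMSO, OE33 libraries of batches 1 to 3 had 149, 98.5 and 173 CPM, and SK-GT-4 libraries had 3.17, 5.42 and 3.49 CPM. The groups did not come near each other, and the log2 fold change of OE33 over SK-GT-4 was 5.11 (SE 0.30, adjusted p = 3.14e-11, edgeR). CX3CL1 ran the other way, with 0.207, 0.256 and 0.353 CPM in OE33 against 1.74, 1.15 and 0.929 CPM in SK-GT-4. It was lower in OE33 by a log2 fold change of -2.18 (SE 0.47, adjusted p = 0.000800), again without overlap. These 2 of the 7 members passed the threshold used throughout (adjusted p of at most 0.01), in a comparison that called 26.2% of all genes tested. CCL28 (log2 fold change 0.46, SE 0.23, adjusted p = 0.136), CCL20 (0.33, SE 0.76, adjusted p = 0.815) and CCL5 (1.33, SE 0.79, adjusted p = 0.216) did not pass. CXCL11 did not pass either (adjusted p = 0.103), with 16 counts against 1 and a ratio of 19.3 (95% counting interval 3.00 to 810).

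**Figure D2:**
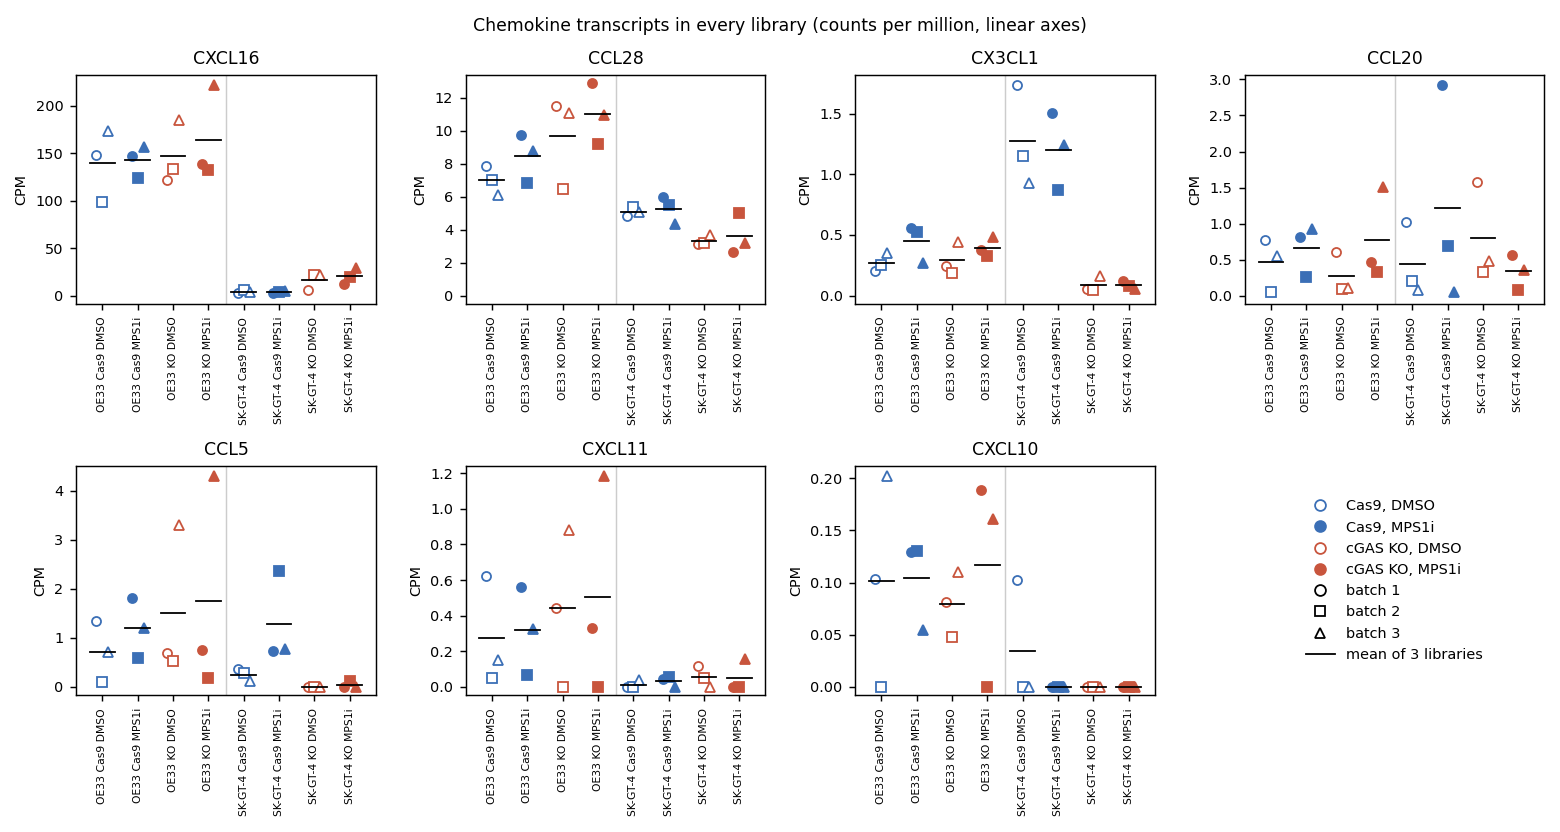
CPM of each chemokine in all 24 libraries, 1 panel per gene with its own linear axis. Open symbols are DMSO and filled symbols MPS1i, blue is Cas9 and red cGAS KO, shapes are batches and bars are means of 3 libraries. CXCL16 and CX3CL1 separated Cas9 from cGAS KO libraries in SK-GT-4, and CCL5 and CXCL11 in OE33 spread by batch more than by treatment.

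MPS1i left the chemokines without a call. In Cas9 cells, where cGAS is present, 0 of 7 members passed in OE33 (0.0049% of all genes tested did) and 0 of 6 tested passed in SK-GT-4 (0% of all genes). In the cGAS KO cells, 0 of 7 and 0 of 6 passed (0% of all genes in each line). DESeq2 also called 0 in each of the 4 comparisons. In OE33 Cas9, however, it gave no adjusted p for CCL5, CXCL11, CCL20 and CX3CL1, so it could not have called these. At an unadjusted p under 0.05, edgeR gave 0 and 1 members in the Cas9 cells of OE33 and SK-GT-4 (6.95% and 2.48% of all genes), and 1 and 0 in the cGAS KO cells (6.95% and 1.39%). The members' median log2 fold change was 0.23 in OE33 Cas9 and 0.19 in OE33 cGAS KO, beside 0.0051 and 0.0025 over all genes. In the Cas9 and cGAS KO cells of SK-GT-4 it was 0.61 and 0.024, beside 0.037 and 0.039 over all genes. The SK-GT-4 medians include members at or under the floor, CXCL11 in Cas9 and CCL5, CXCL11 and CX3CL1 in cGAS KO. The 0.61 lies between CCL28 (0.055) and CXCL11 (1.17), the latter from 1 count in DMSO and 2 in MPS1i. The drop from 0.61 to 0.024 is therefore not readable as a loss of response.

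CCL5 gave the largest response to MPS1i among the members above the floor. In SK-GT-4 Cas9 cells it had 7, 7 and 3 counts in DMSO and 17, 41 and 15 in MPS1i, so MPS1i was higher in all 3 batches and the groups did not overlap. The log2 fold change was 2.22 (SE 0.69), with an unadjusted p of 0.0104 and an adjusted p of 0.981. The ratio of the summed counts, 73 against 17 and scaled to depth, was 5.07, with a 95% counting interval from 2.96 to 9.18 that covers counting error only. In OE33 Cas9 cells CCL5 had 26, 2 and 14 counts in DMSO and 42, 9 and 22 in MPS1i, higher in each batch but overlapping between groups (log2 fold change 0.85, SE 0.64, adjusted p = 0.831). In OE33 cGAS KO cells it had 17, 11 and 60 counts in DMSO and 16, 4 and 80 in MPS1i, with no common direction (0.014, SE 0.62, adjusted p = 1.00). The difference between the responses of OE33 Cas9 and cGAS KO cells was 0.84 (SE 0.86, adjusted p = 1.00), and in SK-GT-4 no such difference can be read because CCL5 was at the floor in all 6 cGAS KO libraries.

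CCL20 was read from similar numbers. SK-GT-4 Cas9 cells had 20, 5 and 2 counts in DMSO and 68, 12 and 1 in MPS1i, and cGAS KO cells had 27, 7 and 9 in DMSO and 14, 2 and 7 in MPS1i. The gene was higher under MPS1i in 2 of 3 batches with Cas9 and lower in 3 of 3 batches with cGAS KO, and batch 1 was the highest in each of these 4 groups. The log2 fold changes were 1.41 (SE 0.75, adjusted p = 0.981) and -1.15 (SE 0.80, adjusted p = 0.966), and their difference was 2.55 (SE 1.09, unadjusted p = 0.0393, adjusted p = 0.823), in a comparison where 2.41% of all genes had an unadjusted p under 0.05 and 0% were called. OE33 Cas9 cells had 15, 1 and 11 counts in DMSO and 19, 4 and 17 in MPS1i (0.58, SE 0.59, adjusted p = 0.883). OE33 cGAS KO cells had 15, 2 and 2 in DMSO and 10, 7 and 28 in MPS1i (1.42, SE 0.62, unadjusted p = 0.0360, adjusted p = 0.701). MPS1i was higher there in 2 of 3 batches and 28 of the 45 MPS1i counts came from batch 3.

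**Figure D3:**
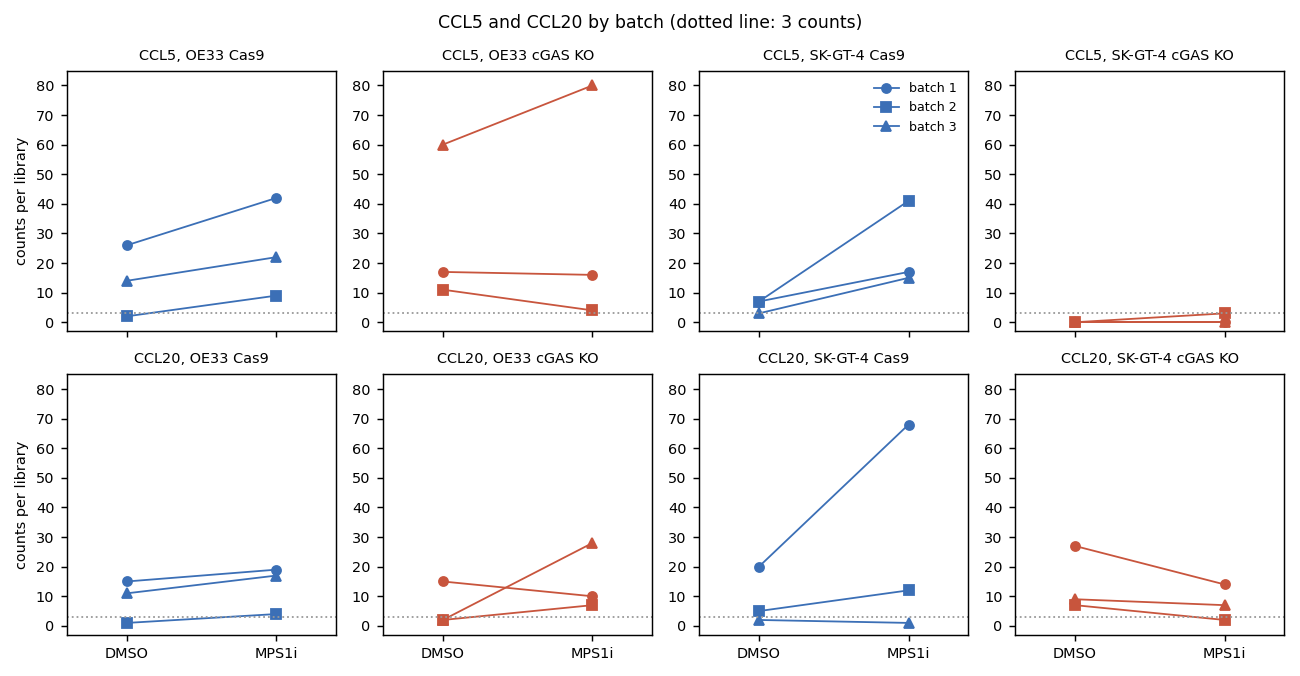
Counts of CCL5 (top) and CCL20 (bottom) in DMSO and MPS1i libraries of the same batch, joined by lines, in the 4 combinations of cell line and genotype. The dotted line marks 3 counts. All 3 lines sloped upward for CCL5 in both Cas9 controls, while SK-GT-4 cGAS KO cells stayed at or below 3 counts.

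The CXCR3 ligands stayed near the floor. CXCL10 reached at most 4 counts in OE33, in 2 of 12 libraries, and had 2 counts over all 12 SK-GT-4 libraries, so no fold change is given. In the 6 SK-GT-4 cGAS KO libraries it had 0 counts, which allows up to 0.0240 CPM over the group. CXCL11 never exceeded 3 counts in SK-GT-4. In OE33 Cas9 cells it had 12, 1 and 3 counts in DMSO and 13, 1 and 6 in MPS1i (log2 fold change 0.19, SE 0.79, adjusted p = 0.987), and in cGAS KO cells 11, 0 and 16 in DMSO and 7, 0 and 22 in MPS1i (0.15, SE 0.71, adjusted p = 0.986). Batch 2 was the lowest in each of these groups, and the batches differed more than the treatments did. At this depth, an effect of MPS1i on either gene was not detectable.

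Among the tethered and mucosal members, CXCL16 and CCL28 were above the floor in every library, and their MPS1i effects had smaller SE in OE33 than in SK-GT-4. For CXCL16 the log2 fold change was 0.030 (SE 0.14) in OE33 Cas9, 0.13 (SE 0.14) in OE33 cGAS KO, -0.0030 (SE 0.34) in SK-GT-4 Cas9 and 0.39 (SE 0.33) in SK-GT-4 cGAS KO. For CCL28 it was 0.23 (SE 0.18), 0.19 (SE 0.17), 0.055 (SE 0.28) and 0.10 (SE 0.28) in the same order. CX3CL1 gave 0.72 (SE 0.55) and 0.45 (SE 0.54) in the Cas9 and cGAS KO cells of OE33, from between 4 and 13 counts per library, and -0.077 (SE 0.42) in SK-GT-4 Cas9. The smallest adjusted p among these values was 0.832. The MPS1i effect did not pass a test of difference between the lines for any member (0% of all genes called in Cas9 and in cGAS KO cells).

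Genotype, in contrast, separated the SK-GT-4 libraries for CX3CL1 and CXCL16. CX3CL1 had 34, 28 and 25 counts in Cas9 cells given DMSO and 1, 1 and 3 in cGAS KO cells given DMSO, and 35, 15 and 24 against 3, 2 and 1 under MPS1i. The 6 Cas9 libraries, between 0.866 and 1.74 CPM, did not overlap the 6 cGAS KO libraries, between 0.0478 and 0.161 CPM, which were all at the floor. The ratio of summed counts was 13.9 (95% counting interval 5.74 to 43.9) in DMSO and 14.1 (6.18 to 39.7) in MPS1i. edgeR gave log2 fold changes of cGAS KO over Cas9 of -3.74 (SE 0.56, adjusted p = 0.00384) and -3.71 (SE 0.55, adjusted p = 0.00368). With 2 batches in place of 3 the decrease missed the threshold in each of the 6 refits, with adjusted p between 0.0257 and 0.220.

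CXCL16 was higher in the cGAS KO cells of the same line. It had 3.17, 5.42 and 3.49 CPM in Cas9 cells given DMSO and 6.09, 21.8 and 21.4 CPM in cGAS KO cells, and 3.23, 4.27 and 4.48 CPM against 11.97, 19.9 and 29.1 CPM under MPS1i. The genotypes did not overlap, and cGAS KO replicate 1 in DMSO lay closest to Cas9. The log2 fold change was 2.27 under MPS1i (SE 0.35, adjusted p = 0.00455), which passed, and 1.87 in DMSO (SE 0.35, adjusted p = 0.0109), which just missed and passed without that library (adjusted p = 0.00118). The call under MPS1i was lost without batch 2 (adjusted p = 0.0237), without batch 3 (0.316) and without the batch block (0.0182). Even in cGAS KO cells the highest SK-GT-4 library, at 29.1 CPM, was below the lowest OE33 library, at 98.5 CPM.

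CCL5 was close to absent from the SK-GT-4 cGAS KO cells, with 0 counts in each DMSO library and 0, 3 and 0 under MPS1i. Cas9 cells given DMSO had 17 counts, 4.53-fold more after scaling to depth when the 0 counts are set to a floor of 3 over the group (edgeR adjusted p = 0.0644). This ratio makes no allowance for counting error in the 17. Under MPS1i the ratio of Cas9 to cGAS KO was 27.8 (73 against 3 counts, 95% counting interval 9.16 to 138, adjusted p = 0.0162). Neither passed. CCL28 was lower in cGAS KO, with 4.80, 5.38 and 5.05 CPM against 3.10, 3.20 and 3.65 CPM in DMSO, without overlap (log2 fold change -0.62, SE 0.28, adjusted p = 0.285). Under MPS1i it had 5.98, 5.49 and 4.33 CPM against 2.64, 5.00 and 3.20 CPM, which overlapped (-0.57, SE 0.28, adjusted p = 0.307). CCL20 went in opposite directions in DMSO (1.12, SE 0.77) and MPS1i (-1.43, SE 0.80). In all, 1 of the 6 members tested was called in DMSO and 2 of 6 in MPS1i, where 1.76% and 1.41% of all genes were.

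In OE33, 0 of 7 members were called between genotypes, in DMSO or in MPS1i, where 1.47% and 2.84% of all genes were, and DESeq2 also called 0. At an unadjusted p under 0.05, 1 member was found in DMSO and 0 in MPS1i (17.5% and 21.3% of all genes). That member was CCL28, with 7.86, 6.97 and 6.10 CPM in Cas9 and 11.5, 6.47 and 11.1 CPM in cGAS KO (log2 fold change 0.41, SE 0.18, adjusted p = 0.236). The low value of 6.47 CPM was the library with the high CGAS level, and without it the log2 fold change was 0.57 (adjusted p = 0.0419). Under MPS1i CCL28 had 9.75, 6.84 and 8.74 CPM in Cas9 and 12.9, 9.20 and 10.96 CPM in cGAS KO (0.37, SE 0.17, adjusted p = 0.237), higher in 3 of 3 batches. CXCL16 stayed between 98.5 and 222 CPM in all 12 OE33 libraries, with log2 fold changes of 0.049 (SE 0.14) and 0.15 (SE 0.14). CCL5, with 60 and 80 counts in the batch 3 cGAS KO libraries against 14 and 22 in the batch 3 Cas9 libraries, and with 17 and 16 against 26 and 42 in batch 1, had no common direction across batches.

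**Figure D4:**
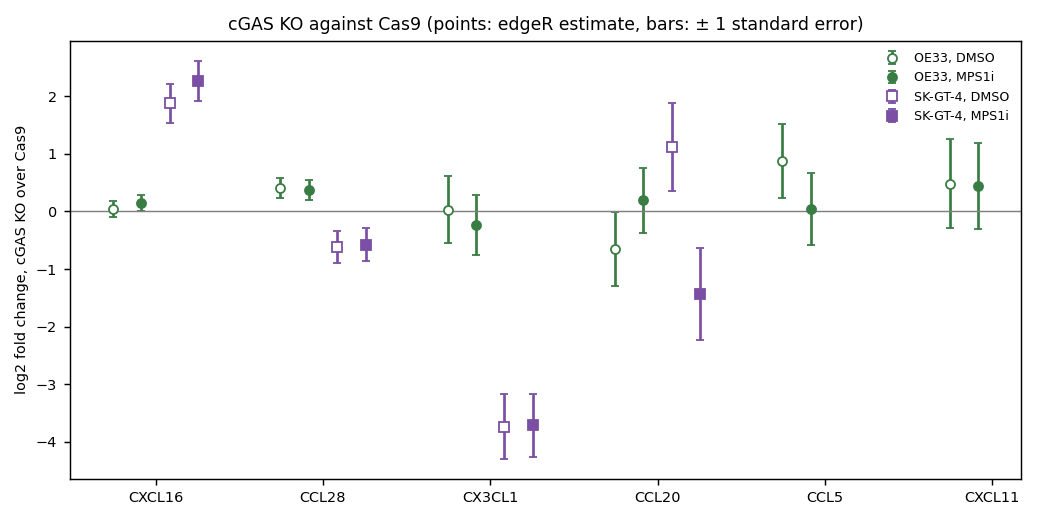
Log2 fold change of cGAS KO over Cas9 for 6 chemokines (points, edgeR estimates, bars, 1 standard error each way), in OE33 (green circles) and SK-GT-4 (violet squares), with open symbols for DMSO and filled symbols for MPS1i. CXCL10 and, in SK-GT-4, CXCL11 are not drawn because both genotypes were at the floor, and CCL5 in SK-GT-4 is not drawn because 5 of its 6 cGAS KO libraries had 0 counts. CX3CL1 in SK-GT-4 is drawn, from between 1 and 3 counts in each cGAS KO library. In SK-GT-4, CXCL16 lay above 0 and CX3CL1 below it, and the OE33 values of both lay within 1 standard error of 0 or close to it.

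The effect of genotype differed between the lines. Averaged over both treatments, the cGAS KO effect in OE33 minus that in SK-GT-4 was -1.96 for CXCL16 (SE 0.26, adjusted p = 2.86e-05), 3.63 for CX3CL1 (SE 0.54, adjusted p = 0.000103) and 1.00 for CCL28 (SE 0.24, adjusted p = 0.00797). The size for CX3CL1 rests on 11 counts over the 6 SK-GT-4 cGAS KO libraries. For CCL5 the adjusted p was 0.00251, and its size is not given because 5 of these 6 libraries had 0 counts and the fitted value then depends on the prior count. These 4 of the 7 members were called where 5.33% of all genes were. For CCL28 the genotype effect had opposite signs in the lines, while for CXCL16 and CX3CL1 the SK-GT-4 effect was large and the OE33 effect small. All 4 calls were lost without batch 3, with adjusted p between 0.0156 and 0.224, and CXCL16 and CX3CL1 kept theirs when batches were not blocked (0.00107 and 0.000134), while CCL5 (0.0136) and CCL28 (0.0311) did not.

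Epithelial markers moved with the genotype in SK-GT-4. Their summed level ran from 3681 to 8641 CPM in the 6 Cas9 libraries and from 9086 to 19421 CPM in the 6 cGAS KO libraries, and all 6 markers had positive log2 fold changes in both treatments. CDH1, which encodes E-cadherin, lay between 3.83 and 13.8 CPM in Cas9 and between 21.4 and 224 CPM in cGAS KO, EPCAM between 45.1 and 105 and between 168 and 429 CPM, and CLDN4 between 2.71 and 4.84 and between 40.9 and 147 CPM. In DMSO 3 of the 6 were called higher (CLDN4, CDH1 and EPCAM, with log2 fold changes of 4.55, 3.53 and 2.71), and 2 were in MPS1i. Of all genes, 1.76% were called in DMSO and 1.41% in MPS1i in SK-GT-4. In OE33 0 of 6 were called in DMSO or in MPS1i, where 1.47% and 2.84% of all genes were. CDH1 ran there from 358 to 677 CPM in Cas9 and from 363 to 1028 CPM in cGAS KO. The part of this difference between the SK-GT-4 clones in the CXCL16, CX3CL1 and CCL5 values was not tested. The genotype effect on CLDN4, CDH1, EPCAM and KRT19 differed between the lines (the largest adjusted p of these was 0.00434), in a comparison that called 5.33% of all genes. The summed immune and stromal markers overlapped between the genotypes in SK-GT-4 (43.96 to 83.5 and 15.7 to 86.0 CPM), where 0 of the 8 tested were called and 2 had log2 fold changes above 0 in each treatment (medians -0.68 in DMSO and -0.69 in MPS1i). In OE33, 1 of the 6 tested was called in DMSO and 0 of 6 in MPS1i, where 1.47% and 2.84% of all genes were. It was CD14, a monocyte marker, which was higher in cGAS KO cells given DMSO (log2 fold change 1.23, SE 0.23, adjusted p = 0.00564). That group holds the library with the high CGAS level. The genotype effect on CD14 in OE33 minus that in SK-GT-4 was 2.13 (SE 0.29, adjusted p = 3.53e-05).

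The genes on either side of the members that differed by genotype were read as well. Within 1 Mb of CX3CL1 on chromosome 16, 36 genes with a mean of at least 1 CPM in SK-GT-4 had a median log2 fold change of cGAS KO over Cas9 of 0.33 in DMSO and 0.19 in MPS1i. The lowest of them was -1.24, against -3.74 and -3.71 for CX3CL1, and the highest were 3.64 in DMSO and 2.33 in MPS1i. Of the 36, 3 were called in DMSO and 1 in MPS1i, where 1.76% and 1.41% of all genes were. CCL22, a ligand of CCR4 and a close neighbor of CX3CL1, had 0 counts in all 6 SK-GT-4 Cas9 libraries and between 2 and 10 in the cGAS KO libraries. The 40 genes within 1 Mb of CXCL16 on chromosome 17 had medians of 0.086 and 0.14, but ranged up to 7.06 and 2.97. CCL5, on another part of the same chromosome, had 24 such neighbors with medians of 0.16 and -0.073. They ranged from -1.87 to 3.83 in DMSO and from -1.55 to 3.22 in MPS1i, with 1 called in each.

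Receptors and processing enzymes set the members in context. None of the 10 receptors listed for these chemokines had a mean of 1 CPM in OE33, and CCR10, a receptor of CCL28, and ACKR3, a scavenger receptor of CXCL11, did in SK-GT-4. All 5 processing enzymes had such a mean in both lines when the genotypes were pooled. ADAM10 lay between 124 and 314 CPM in OE33 and between 66.1 and 140 CPM in SK-GT-4. ADAM17 lay between 36.7 and 77.2 CPM in OE33 and between 11.2 and 113 CPM in SK-GT-4. CTSS reached the level in SK-GT-4 only through cGAS KO, with medians of 0.0557 CPM in Cas9 and 1.94 CPM in cGAS KO. ACKR3 reached it there only through Cas9, with medians of 2.63 CPM in Cas9 and 0.206 CPM in cGAS KO. In each of the 4 comparisons of MPS1i with DMSO, edgeR called 0 of the 5 enzymes, of the 14 signaling genes of the STING, IRF, STAT and NF-κB families, of the receptors (5 tested in OE33 and 3 tested in SK-GT-4) and of the 39 other chemokines (11 tested in OE33 and 14 tested in SK-GT-4). In any one list and comparison at most 3 genes had an unadjusted p under 0.05. These were 3 of 14 signaling genes in OE33 Cas9 and 3 of 11 other chemokines in OE33 cGAS KO, where 6.95% of all genes had such a p in each. The other chemokines tested had median log2 fold changes of 0.49 and 0.41 in the Cas9 and cGAS KO cells of OE33 and 0.92 and 0.047 in those of SK-GT-4. Over all genes the medians were 0.0051, 0.0025, 0.037 and 0.039, and the difference was not tested. Only 5 of the 11 tested in OE33 and 6 of the 14 tested in SK-GT-4 had a mean of at least 1 CPM. The medians thus include genes with few counts, and the drop from 0.92 to 0.047 is not readable as a loss of response. Of the other chemokines, CXCL1, CXCL2, CXCL3, CXCL6 and CXCL8 reached a mean of 1 CPM in both lines and CXCL12 in SK-GT-4, while 19 had 0 counts in all 12 libraries of OE33 and 20 in all 12 of SK-GT-4. Between genotypes in SK-GT-4, 1.76% of all genes were called in DMSO and 1.41% in MPS1i, and MMP9 rose in both. Its log2 fold changes were 2.06 (SE 0.35, adjusted p = 0.00703) and 1.96 (SE 0.34, adjusted p = 0.00918), and 0 of the 14 signaling genes were called in either. In OE33, 1 of the 14 signaling genes was called in DMSO and 1 in MPS1i, where 1.47% and 2.84% of all genes were. IRF7, a transcription factor of the interferon response, was higher in cGAS KO cells given DMSO (1.46, SE 0.26, adjusted p = 0.00378). This DMSO group includes the library with the high CGAS level. TMEM173, which encodes STING, was lower in cGAS KO cells under MPS1i (-1.26, SE 0.24, adjusted p = 0.00412). In SK-GT-4, CTSS, with between 0 and 5 counts in the Cas9 libraries and between 21 and 88 in cGAS KO, was higher as well (adjusted p = 0.00839 in DMSO, not called in MPS1i). ACKR3 had between 18 and 89 counts with Cas9 and between 0 and 8 with cGAS KO (adjusted p = 0.00171 in DMSO and 0.00230 in MPS1i). The comparison of the genotype effect between the lines called 5.33% of all genes. It called 2 of the 5 enzymes, CTSS (adjusted p = 3.19e-06) and MMP9 (0.00822), and 3 of the 17 other chemokines tested. Of these, CCL2, a principal monocyte attractant, had between 5 and 30 counts in the SK-GT-4 Cas9 libraries and between 0 and 2 with cGAS KO, beside 0 to 12 and 0 to 7 in OE33 (adjusted p = 0.00730). CCL22 (0.00115) and PPBP (0.00676), a platelet chemokine, went the other way in SK-GT-4, PPBP from between 1 and 2 counts with Cas9 to between 6 and 32 with cGAS KO.

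The genes whose log2 CPM followed each member most closely were found within lines, after the mean of each line was subtracted. Over 24 libraries and 11718 genes, CXCL16 was followed by MARVELD2 (Pearson r = 0.975), HID1 (0.974) and SLC37A1 (0.971), and CCL28 by UQCC1 (0.821), ZNF529 (0.821) and NXPE3 (0.815). In the 12 OE33 libraries, over 12302 genes, CCL5 was followed by LAMB3 (0.963), SAMD9L (0.934) and THEMIS2 (0.934). These libraries share batches, genotypes and depth, and the values are descriptions without a test. CXCL10, CXCL11, CCL20 and CX3CL1 had means under 1 CPM in both lines and were not compared.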

How the data were processed

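Poly(A) RNA of 24 libraries was sequenced by the authors as paired-end reads, mapped to GRCh38 with HISAT2 2.0.5 and counted per gene with featureCounts 1.5.0, per the submitters' processing notes. The deposited values are raw counts, and 0 sample columns lacked a sample. The annotation release, the strand setting and the treatment of reads that map to several places are not given in the sources used here, so reads of overlapping or antisense genes cannot be told apart.

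Groups were taken from the labels. Genes that totalled 5 or more counts and were detected in 4 or more libraries were fitted per line with edgeR 4.0.16 (R 4.3.3), using TMM factors, group terms and batch as a block (20426 genes for OE33, 22782 for SK-GT-4). Comparisons between the lines used all 24 libraries together (25181 genes) with batch nested in line. Quasi-likelihood tests were adjusted by Benjamini-Hochberg over all genes tested, the SE is the fold change divided by the square root of F, and counting intervals are at 95%. Log2 CPM used a prior count of 2. The labels give each library a batch number, which was taken to pair the libraries. Deviations from the group mean of libraries of 1 genotype and batch number correlated with a median r of 0.568 (0.348 to 0.737) for OE33 and 0.377 (0.111 to 0.647) for SK-GT-4. For libraries of 1 batch number and different genotypes the median was 0.421 (0.0696 to 0.674) and 0.23 (-0.597 to 0.508). None of the 24 pairs of libraries within a group held identical values. The fit was tested on simulated data.

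The members and lists were chosen with earlier results of these data known, and the comparison of the genotype effect between lines was added after the data were seen. The rule for named genes took the members, CGAS, listed genes called in a comparison of MPS1i with DMSO or of effects, and for each member with a mean of at least 1 CPM the 3 genes most correlated with it. A listed receptor is not reported here. Receptors, enzymes, signaling genes and markers named with genotype calls were chosen after their values were seen. Alternatives were DESeq2 1.42.0 or its size factors, other filters, other blocks, another threshold, and batches or single libraries left out.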

Additional observations from a re-analysis of the deposited data

Results flagged for a closer look

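The effect of cGAS KO differed between OE33 and SK-GT-4 by the test of the difference itself for 4 members, with edgeR adjusted p of 2.86e-05 for CXCL16, 0.000103 for CX3CL1, 0.00251 for CCL5 and 0.00797 for CCL28. In SK-GT-4, CX3CL1 was lower in cGAS KO and passed in both treatments, CXCL16 was higher and passed in MPS1i but not in DMSO (adjusted p = 0.0109), and CCL5 was lower and passed in neither (0.0644 in DMSO and 0.0162 in MPS1i). In OE33 the effects on these genes did not pass. CCL28 had log2 fold changes of 0.41 and 0.37 in OE33 and of -0.62 and -0.57 in SK-GT-4, in DMSO and MPS1i. Both genotypes were grown from clones, so the clone and the loss of cGAS cannot be told apart. The comparison was chosen after the data were seen.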

How the results depend on the processing

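Of 62 values of single members, 9 were called, and over 102 alternatives for these, 82 stayed past the threshold, 20 did not, and 0 changed sign. Of the 53 not called, 21 changed sign at least once, in 40 of 534 alternatives. The cause of these changes was not tested. For the cGAS KO effect in SK-GT-4 given DMSO, 1 member was called, and 2 were with DESeq2, with its size factors, with filterByExpr, with no filter or at an adjusted p of at most 0.05 (CXCL16 joined), and between 0 and 2 with batches or libraries left out. In MPS1i, 2 were called, 1 without the replicate block, and between 0 and 3 with batches or libraries left out. Between OE33 and SK-GT-4, 2 were called, and between 1 and 2 with batches or libraries left out (CX3CL1 was lost without batch 1, adjusted p = 0.0391). For the difference of the cGAS KO effect, 4 were called, 2 without the replicate block or with a block shared by the lines, and between 0 and 4 with batches or libraries left out. The counts of 0 for MPS1i and for genotype in OE33 held under each alternative run. For MPS1i in OE33 Cas9, DESeq2 gave no adjusted p for CCL5, CXCL11, CCL20 and CX3CL1 and could not have called them.

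Signs changed as follows, as log2 fold changes. Without the replicate block, CXCL16 under MPS1i in OE33 Cas9 was -0.0018 and the difference of the CCL20 genotype effect between lines was 0.21 (0.17 with a block shared by the lines). With DESeq2, CCL5 in OE33 was -0.14 for MPS1i in cGAS KO and -0.17 for cGAS KO in MPS1i. With a replicate block per genotype and batch, the former was -0.028 and CXCL16 for MPS1i in SK-GT-4 Cas9 was 0.012, as it was 0.013 with DESeq2 size factors, 0.0135 with DESeq2 and 0.029 with filterByExpr. The difference of the CCL28 response between SK-GT-4 genotypes was 0.0041 with DESeq2 size factors and 0.016 with filterByExpr.

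With batches or libraries left out, ranges crossed 0 for MPS1i in OE33 Cas9 (CXCL11 -0.091 to 0.86, CXCL16 -0.074 to 0.13), in OE33 cGAS KO (CCL5 -0.60 to 0.315, CXCL11 -0.43 to 0.37), in SK-GT-4 Cas9 (CXCL16 -0.16 to 0.18, CX3CL1 -0.32 to 0.084, CCL28 -0.095 to 0.16) and in SK-GT-4 cGAS KO (CCL28 -0.22 to 0.24). They crossed 0 for the difference between genotypes in OE33 (CCL20 -1.84 to 0.12, CXCL16 -0.28 to 0.078, CCL28 -0.18 to 0.36) and SK-GT-4 (CCL28 -0.33 to 0.28), and for cGAS KO in OE33 given DMSO (CXCL11 -0.71 to 1.79, CXCL16 -0.096 to 0.24, CX3CL1 -0.10 to 0.25) or MPS1i (CCL5 -1.41 to 0.79, CXCL11 -1.05 to 1.297, CCL20 -0.28 to 0.54, CXCL16 -0.020 to 0.27). CCL20 ranged from -0.64 to 0.93 between the lines and from -0.82 to 0.79 for the genotype effect between the lines.

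With 3 libraries a group and a biological coefficient of variation of 14.97% for OE33 and 34.0% for SK-GT-4, with CCL5, CCL20, CX3CL1, CXCL10 and CXCL11 at or near 3 counts in many libraries, moderate changes of these genes were not detectable.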
